A study of Mus musculus with 12 samples.

Results

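The genes of sterol and lipid synthesis and of sterol efflux and storage were followed through 12 RNA-seq libraries of MC3T3 sc4, pre-osteoblasts of a line derived from mouse calvaria that can lay down bone matrix. The 36 genes were taken by symbol from the 23358 rows of the gene count table. They comprised 18 genes of sterol synthesis, 4 of control by the sterol regulatory element binding proteins (SREBPs), 7 of fatty acid synthesis and 7 of the liver X receptor (LXR), efflux and storage group. Of these, 34 reached 1 CPM (counts scaled to library size) in 2 or more libraries and were tested, among 12056 rows in all. Nr1h3, which encodes LXR alpha, and Abcg1, which encodes a cholesterol exporter, did not pass that filter.

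Cholesterol is built from acetyl-CoA through mevalonate, farnesyl pyrophosphate, squalene and lanosterol. When sterol in the endoplasmic reticulum is scarce, SREBPs are cut free from the membrane and switch on the genes of sterol and fatty acid synthesis, and INSIG proteins hold them back when sterol is plentiful. When sterol is in excess, oxidised sterols activate LXRs, which switch on efflux pumps such as ABCA1 and the lipoprotein receptor ligase MYLIP, and SOAT enzymes store cholesterol as esters.

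All cells were at passage 12 and were held in osteogenic medium with ascorbic acid and beta-glycerol phosphate. Libraries were made on day 6 and on day 1. On each day the cells received 5 µM GSK126, an inhibitor of the histone methyltransferase EZH2, or no GSK126, each combined with 0, 10 or 50 ng/ml of the bone-inducing growth factor BMP2. Medium and agents were replaced after 3 days. Cells with neither agent received vehicle, and each of the 12 conditions was 1 library, so that no condition was replicated. Tests rested on 4 residual degrees of freedom of a fit over all 12 libraries with GSK126 and BMP2 terms within each day. The spread in that fit included any departure from additive log2 effects of GSK126 and BMP2 within a day. As nothing says that the libraries came from separate cultures, p-values measured only the spread between these libraries. Gene totals were 74301112 to 113744802 counts per library. All deposited counts were even, and counting intervals were therefore computed on counts divided by 2, called read pairs here.

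The promoters of members on which the results turn are shown as letters in order to set the sequence elements of this pathway beside the expression values. RefSeq windows of 300 bases (250 before the start site and 50 from it) in GRCm38.p6 were found for 27 of the 36 members. Each was searched on both strands for the sterol regulatory element TCACNCCAC, for the CCAAT box, which is bound by NF-Y and is often found near such elements, and for a direct repeat of AGGTCA spaced by 4 bases with at most 2 mismatches, the class of site that LXR binds. Each sequence is written 5′ to 3′ on the gene's strand, and capitals mark the matches, with ATTGG being a CCAAT box on the other strand. Matches that share bases are each counted, and their capitals then run together.
Hmgcs1, chr13:119690101-119690400, plus strand: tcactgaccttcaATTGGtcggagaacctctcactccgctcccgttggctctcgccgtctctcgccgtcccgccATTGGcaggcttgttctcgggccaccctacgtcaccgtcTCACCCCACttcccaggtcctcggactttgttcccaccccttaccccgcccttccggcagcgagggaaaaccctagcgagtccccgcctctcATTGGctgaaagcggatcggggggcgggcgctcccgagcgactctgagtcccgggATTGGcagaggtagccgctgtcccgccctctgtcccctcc
Idi1, chr13:8885356-8885655, plus strand: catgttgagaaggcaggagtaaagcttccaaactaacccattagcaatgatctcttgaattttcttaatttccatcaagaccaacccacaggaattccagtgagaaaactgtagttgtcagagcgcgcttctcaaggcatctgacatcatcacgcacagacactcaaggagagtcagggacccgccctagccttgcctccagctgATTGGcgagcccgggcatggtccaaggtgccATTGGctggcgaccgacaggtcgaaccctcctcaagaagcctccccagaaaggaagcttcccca
Nsdhl, chrX:72918271-72918570, plus strand: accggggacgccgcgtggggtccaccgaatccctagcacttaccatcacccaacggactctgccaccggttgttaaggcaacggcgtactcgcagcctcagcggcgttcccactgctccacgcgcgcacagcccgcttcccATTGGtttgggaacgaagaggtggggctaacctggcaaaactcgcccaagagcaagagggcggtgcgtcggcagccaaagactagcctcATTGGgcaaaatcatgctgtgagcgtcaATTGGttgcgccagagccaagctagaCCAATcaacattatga
Hsd17b7, chr1:169969156-169969455, minus strand: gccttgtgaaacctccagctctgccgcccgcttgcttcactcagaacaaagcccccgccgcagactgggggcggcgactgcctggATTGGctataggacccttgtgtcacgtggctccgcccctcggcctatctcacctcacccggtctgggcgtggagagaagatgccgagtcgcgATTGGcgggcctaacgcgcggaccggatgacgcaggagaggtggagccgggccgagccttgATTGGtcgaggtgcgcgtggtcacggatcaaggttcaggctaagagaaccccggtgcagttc
Dhcr7, chr7:143829964-143830263, plus strand: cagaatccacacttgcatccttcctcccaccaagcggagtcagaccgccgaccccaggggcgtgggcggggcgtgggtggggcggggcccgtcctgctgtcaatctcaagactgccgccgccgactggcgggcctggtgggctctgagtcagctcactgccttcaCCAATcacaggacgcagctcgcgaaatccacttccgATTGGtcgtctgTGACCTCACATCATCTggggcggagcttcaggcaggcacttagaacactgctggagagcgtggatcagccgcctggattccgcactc
Abca1, chr4:53159846-53160145, minus strand: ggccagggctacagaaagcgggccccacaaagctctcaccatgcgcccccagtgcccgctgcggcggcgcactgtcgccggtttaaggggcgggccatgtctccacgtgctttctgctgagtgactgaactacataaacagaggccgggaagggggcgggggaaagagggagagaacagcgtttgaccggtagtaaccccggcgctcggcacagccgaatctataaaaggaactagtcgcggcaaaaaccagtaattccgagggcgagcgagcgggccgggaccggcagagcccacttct

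A CCAAT box lay in 14 of the 18 windows of sterol synthesis genes, and 14 of the 15 genes with a window had at least 1, against 37.4% of all 32851 promoter windows. Mvk, which encodes mevalonate kinase, held 5, and Hmgcs1 and Nsdhl held 4 each. The sterol regulatory element was matched in 1 of 33 member windows, against 1.24% of all windows. It lay in Hmgcs1, 137 to 129 bases before the start site. The spaced direct repeat was also matched in 1 of 33 member windows, against 3.02% of all windows. It lay in Dhcr7, 37 to 22 bases before the start site and with 2 mismatches. The other Dhcr7 windows, chr7:143822917-143823216 and chr7:143823149-143823448, held none of the 3 elements. The matched window lies inside the Dhcr7 row, which starts at 143823167. Nothing particular to Dhcr7 is read from this match. Of the other groups, 3 of 3 SREBP control genes, 1 of 4 fatty acid synthesis genes and 2 of 5 LXR, efflux and storage genes with a window held a CCAAT box. The window of Abca1 held no match to the 3 elements as searched for. The repeat was searched with at most 2 mismatches, so a site with more mismatches would be missed, in Abca1 as in the other members. The Abca1 window does hold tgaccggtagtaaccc, such a repeat on the other strand with more than 2 mismatches. The Fasn window holds the same letters. The share of all windows with a repeat of that kind was not counted. A match describes the letters and is no proof of binding, and a missing match says only that these letters are not in this window.

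Per length, the members spanned a wide range of levels. By the authors' RPKM values, Scd2, a stearoyl-CoA desaturase, was the member with the highest level, at 163.8 to 301 RPKM on day 6 and 234.8 to 280.5 RPKM on day 1. Among sterol synthesis genes Fdps, which encodes farnesyl pyrophosphate synthase, ran highest on both days, at 25.1 to 97.7 RPKM on day 6 and 156.4 to 194.3 RPKM on day 1. Tm7sf2, a sterol C14 reductase, ran lowest of them, at 1.14 to 4.52 RPKM on day 6 and 5.91 to 10.3 RPKM on day 1. In the LXR, efflux and storage group, Nr1h2, which encodes LXR beta, had 15.0 to 18.9 RPKM on day 6 and 15.7 to 19.7 RPKM on day 1. Nr1h3 stayed at or under 0.836 CPM in every library, and Abcg1 had 0 counts in all 12, which allows at most 0.0486 to 0.0923 CPM (3 read pairs, counting error only, as for all intervals here). Per length, Nr1h3 reached at most 0.311 RPKM, so Nr1h2 was the LXR gene that was read well above the floor.

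**Figure D1:**
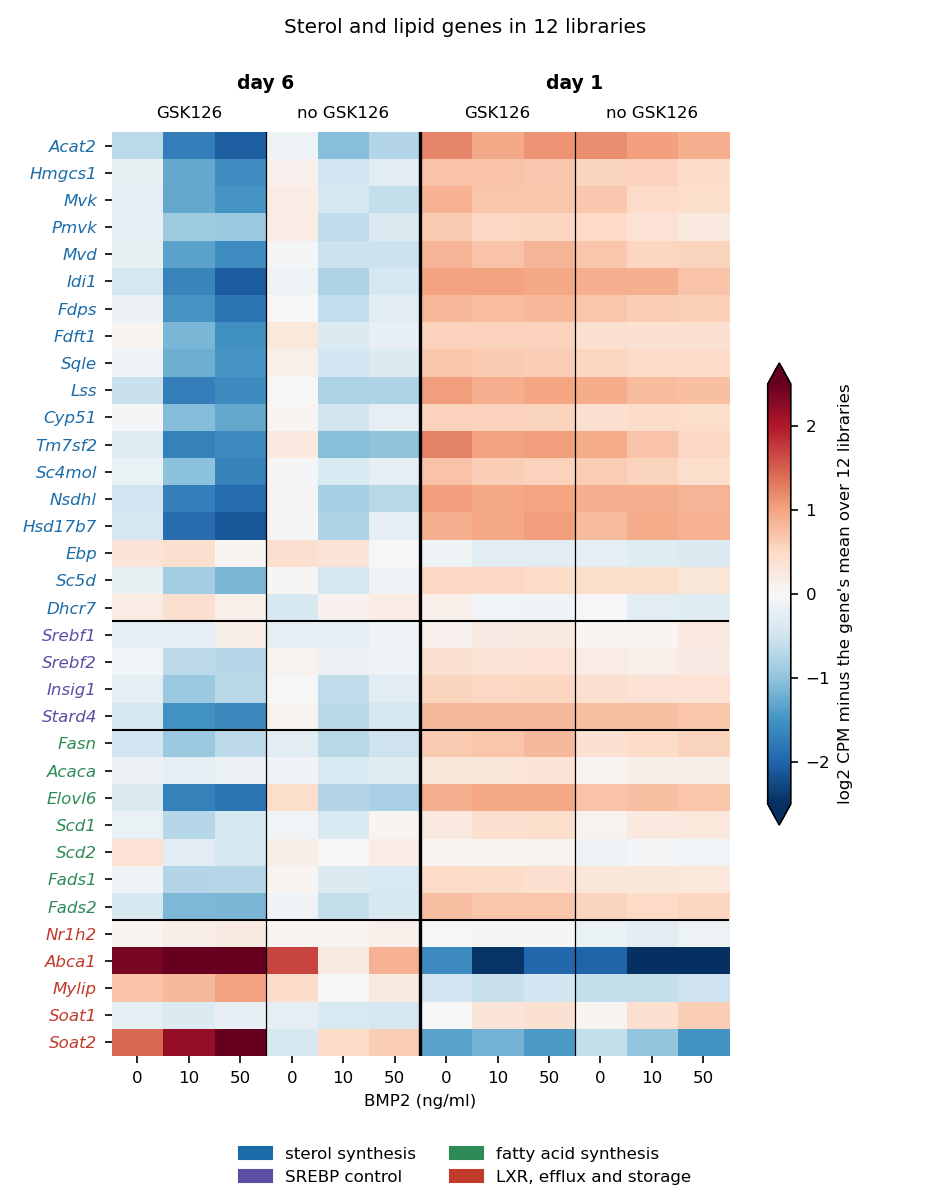
Levels of the 34 tested members (rows, coloured by role) in the 12 libraries (columns, by day, GSK126 and BMP2 dose), as log2 CPM minus the gene's mean over all libraries; the colour scale ends at 2.5 in either direction, which Abca1 exceeds. Most synthesis genes are low in the 6 day 6 columns and lowest with GSK126 and BMP2 together, while Abca1 and Soat2 are highest there.

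On day 6, cells given GSK126 had lower transcript levels of most sterol synthesis genes and higher levels of 3 efflux and storage genes. By edgeR's quasi-likelihood test, with p-values adjusted after Benjamini and Hochberg over all tested genes, 24 of 34 members were lower with GSK126 and 3 were higher, against 14% of all tested genes lower and 14.3% higher. Sterol synthesis genes were lower in 16 of 18 cases, with a median log2 fold change of -0.73, against -0.002 over all genes. That is a mean over unlike doses: between single libraries the median was -0.27 without BMP2, -0.77 at 10 ng/ml and -1.11 at 50 ng/ml. SREBP control genes were lower in 3 of 4 cases and fatty acid synthesis genes in 5 of 7, and the LXR, efflux and storage group was higher in 3 of 5 with none lower. In bulk RNA, fewer cells of one kind and less RNA per cell cannot be told apart.

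Hmgcs1 (chr13:119690462-119708077, mm10 as for all gene positions here), which makes HMG-CoA, had 256.5, 121.5 and 99.4 CPM at 0, 10 and 50 ng/ml BMP2 in GSK126 cells on day 6, against 316, 210 and 242 CPM in cells without GSK126. The GSK126 library was the lower one at every BMP2 dose, with overlap between the sets, and the log2 fold change was -0.79 ± 0.16 SE (adjusted p = 0.0121). Idi1 (chr13:8885606-8892396), the isopentenyl diphosphate isomerase, had 103, 44.3 and 32.9 CPM with GSK126, against 127, 80.8 and 102 CPM without. Its fold change was -0.93 ± 0.21 (adjusted p = 0.0189), and the 2 sets of libraries overlapped only through the GSK126 library without BMP2.

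Hsd17b7 (chr1:169949537-169969205), which reduces a keto group late in sterol synthesis, fell by 1.13 ± 0.24 on the log2 scale (adjusted p = 0.0145), the largest fall of the 34 members with GSK126 on day 6. It had 47.1, 16.7 and 14.4 CPM with GSK126, against 61.9, 36.9 and 53.5 CPM without. Nsdhl (chrX:72918521-72958528), a C4 demethylation enzyme, fell by 0.87 ± 0.12 (adjusted p = 0.00261), to 27.1, 11.9 and 10.1 CPM with GSK126, against 39.2, 21.6 and 23.8 CPM without. Lanosterol synthase, Lss, fell by 0.76 ± 0.07 (adjusted p = 0.000681). For Hsd17b7 and Nsdhl the libraries with GSK126 and BMP2 were the lowest. Sqle, the squalene epoxidase, had 168.2, 77.9 and 64.7 CPM with GSK126, against 198.5, 130.5 and 142.8 CPM without, at -0.71 ± 0.15 (adjusted p = 0.013). The other sterol synthesis genes past the threshold ran from -0.86 (Fdps) to -0.41 (Pmvk, phosphomevalonate kinase).

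The late enzymes Ebp and Dhcr7 did not pass the threshold. Ebp, the sterol isomerase, had 54.9, 57.7 and 45.4 CPM with GSK126, against 58.2, 55.4 and 44.1 CPM without, a log2 fold change of 0.005 ± 0.048 (adjusted p = 0.949). Dhcr7, the reductase of the last step to cholesterol, had 71.0, 82.8 and 68.3 CPM with GSK126, against 47.3, 67.5 and 71.5 CPM without, a log2 fold change of 0.27 ± 0.11 that did not pass the threshold (adjusted p = 0.107). Dhcr7 differed most between GSK126 and no GSK126 without BMP2 and was nearly level at 50 ng/ml.

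Among the SREBP control genes, Srebf2, which encodes the SREBP that mainly drives sterol synthesis, fell by 0.42 ± 0.08 with GSK126 on day 6 (adjusted p = 0.00956), with 225.2, 150.4 and 144.3 CPM, against 252.3, 214.1 and 215.4 CPM without. Insig1, the SREBP retention factor and itself an SREBP target, fell by 0.31 ± 0.05 (adjusted p = 0.00423), with 138.7, 84.5 and 100.3 CPM, against 161.3, 104.1 and 132.7 CPM without. Stard4, a sterol carrier protein, fell by 0.84 ± 0.11 (adjusted p = 0.00206), to 44.3, 21.1 and 19.7 CPM with GSK126, against 64.0, 37.1 and 44.2 CPM without. Srebf1, which encodes the SREBP more tied to fatty acid synthesis, had 46.8, 48.6 and 61.7 CPM with GSK126, against 47, 48.5 and 52.0 CPM without, at 0.08 ± 0.06 (adjusted p = 0.367). For Srebf2 all GSK126 libraries with BMP2 lay below every library without GSK126, and for Srebf1 the sets overlapped.

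Fatty acid genes were split. Elovl6 (chr3:129532386-129638493), the elongase of palmitate, fell by 0.92 ± 0.05 (adjusted p = 8.78e-05), to 59.5, 23.5 and 21.6 CPM with GSK126, against 103, 46.0 and 43.1 CPM without. Of the polyunsaturated fatty acid desaturases, Fads2 stood at -0.53 ± 0.08 (adjusted p = 0.00333) and Fads1 at -0.30 ± 0.05 (adjusted p = 0.00661). Scd1, a desaturase of saturated fatty acids, had 184.6, 126.6 and 153.9 CPM with GSK126, against 199.1, 159.3 and 214.4 CPM without, at -0.31 ± 0.07 (adjusted p = 0.0174). Every one of these genes was lower with GSK126 at every BMP2 dose. Fasn, the fatty acid synthase, had 398.4, 291.7 and 349.2 CPM, against 452.7, 344.3 and 386 CPM without, at -0.19 ± 0.05 (adjusted p = 0.0222). The acetyl-CoA carboxylase Acaca (0.08 ± 0.05) and Scd2 (-0.22 ± 0.14) did not pass the threshold. Scd2 had 2113, 1382 and 1236 CPM with GSK126, against 1833, 1667 and 1885 CPM without, so it was higher with GSK126 without BMP2 and lower with it.

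Of the efflux and storage genes, Abca1 (chr4:53030789-53159895), the exporter that hands cholesterol to apolipoproteins, had 8.19, 14.6 and 42.4 CPM at 0, 10 and 50 ng/ml BMP2 with GSK126 on day 6, against 5.13, 1.86 and 2.92 CPM without. The 2 sets of libraries did not overlap, and the fold change was 2.49 ± 0.56 on the log2 scale (adjusted p = 0.0177 in edgeR's test). Soat2 (chr15:102150575-102163436), an acyltransferase that esterifies cholesterol, had 8.35, 14.1 and 20.8 CPM with GSK126, against 2.35, 4.22 and 4.74 CPM without, again with no overlap, at 1.90 ± 0.15 (adjusted p = 0.000286). Mylip (chr13:45389742-45411940), the ligase that marks lipoprotein receptors for breakdown, had 54.4, 58.4 and 66.8 CPM with GSK126, against 45.7, 32.9 and 38.8 CPM without, at 0.62 ± 0.11 (adjusted p = 0.00721). For all 3 genes every GSK126 library lay above every library without it. The share of all tested genes that separate in this way was not computed, so nothing particular to these genes is read from the separation.

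The LXR beta gene itself (Nr1h2, 0.08 ± 0.05, adjusted p = 0.266) and the second esterification gene Soat1 (0.09 ± 0.06, adjusted p = 0.29) did not pass the threshold. Per length, Abca1 reached 2.98 RPKM, Soat2 7.05 RPKM and Mylip 16.2 RPKM at their highest, in the library with GSK126 and 50 ng/ml BMP2. In that library Hmgcs1 had 21.9 RPKM, Nsdhl 3.30 RPKM and Hsd17b7 2.27 RPKM, so the 3 genes that rose lay within the range of the sterol synthesis genes.

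The calls of GSK126 on day 6 depended on the 10 ng/ml libraries of that day, on the day 1 libraries and on how the spread was estimated. Without any 1 of the day 1 libraries 12 sterol synthesis genes were lower, not 16. Of the 12 fits without 1 library, Cyp51 lost its call in 10, and Fdps, Sc4mol, Sc5d and Fasn in 8 each. Without the day 6 library of 10 ng/ml BMP2 with GSK126, or without that of 10 ng/ml BMP2 alone, 11 members were lower and 2 higher, and Abca1 had a fold change of 2.23 in both cases (adjusted p = 0.105 and 0.104). Those 11, which were lower in every fit without 1 library, were Acat2, Mvk, Pmvk, Lss, Tm7sf2, Nsdhl, Insig1, Stard4, Elovl6, Fads1 and Fads2, and the 2 that were higher in every such fit were Soat2 and Mylip. On the 6 day 6 libraries alone, with 2 residual degrees of freedom, 6 members were lower and Soat2 alone was higher, against 3.96% and 3.94% of tested genes.

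**Figure D2:**
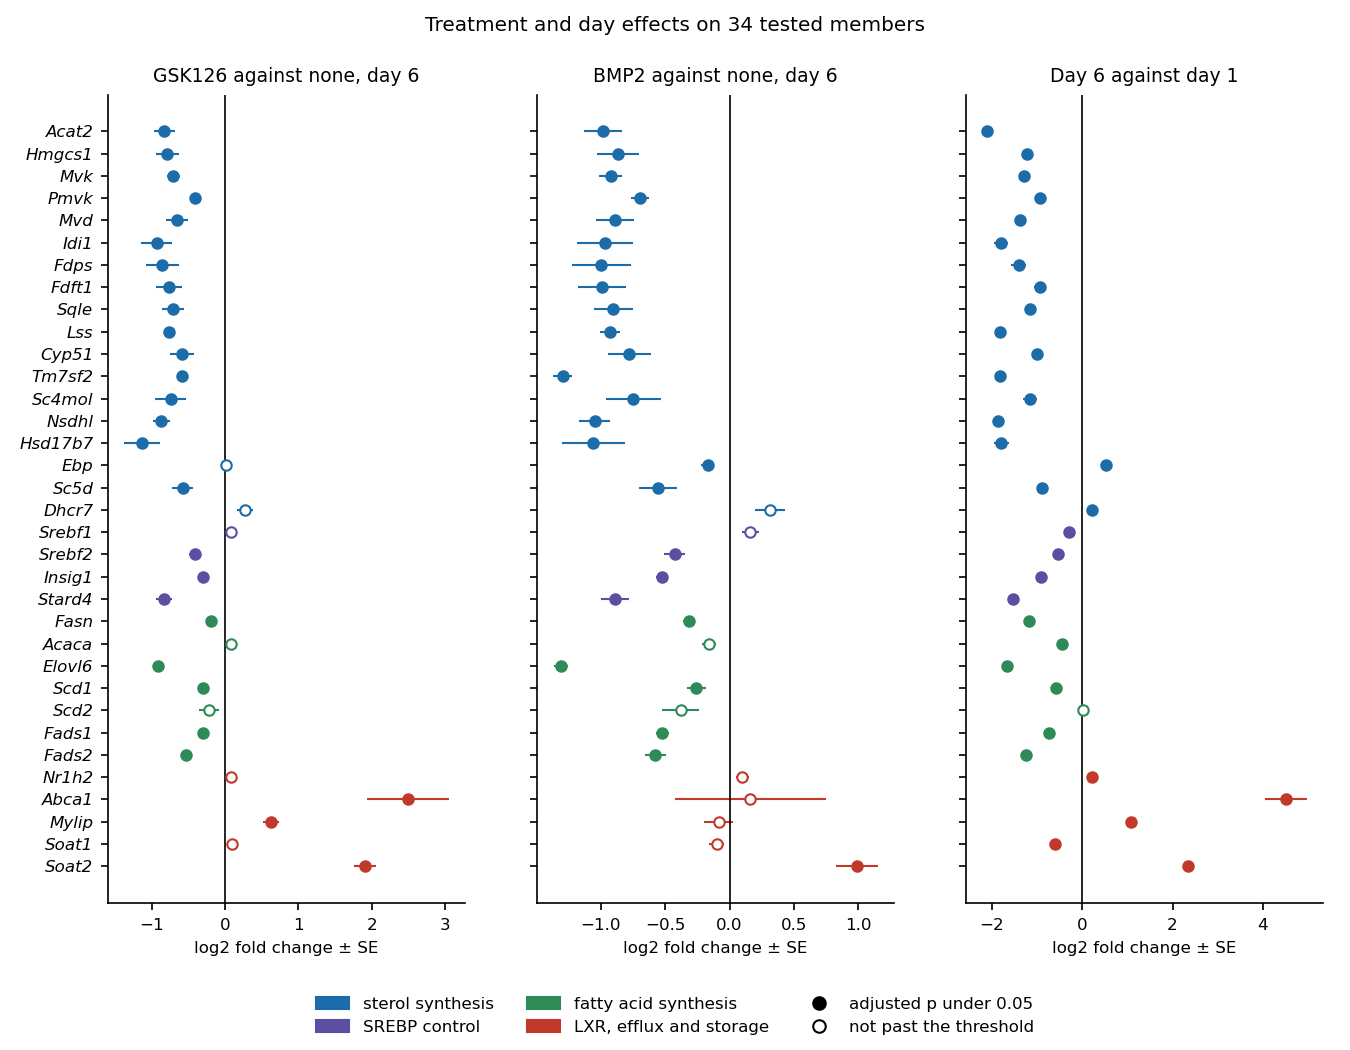
Log2 fold changes (x axes, with SE bars) of the 34 tested members (rows, coloured by role) for GSK126 against none on day 6, BMP2 against none on day 6, and day 6 against day 1; filled points passed an adjusted p of 0.05 in edgeR's test. Sterol synthesis genes lie left of 0 in all 3 panels except Ebp, which does so only with BMP2, and Dhcr7, which does so in none. Abca1, Mylip and Soat2 lie right of 0 with GSK126 and on day 6.

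With BMP2 on day 6 most sterol synthesis genes were lower, and 1 efflux and storage gene was called. The BMP2 effect is the mean of the 10 and 50 ng/ml effects, and it uses the same 6 libraries as the GSK126 comparison. In edgeR's test, 25 of 34 members were lower and 1 was higher with BMP2, against 15.5% of tested genes lower and 13.3% higher. Sterol synthesis genes were lower in 17 of 18 cases with a median of -0.91, SREBP control genes in 3 of 4 and fatty acid genes in 5 of 7. Between single libraries the sterol synthesis median was -1.09 and -1.37 at 10 and 50 ng/ml with GSK126, and -0.62 and -0.44 without. In the LXR, efflux and storage group, Soat2 rose and the other 4 tested genes did not pass the threshold.

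Elovl6 fell by 1.31 ± 0.05 with BMP2 on day 6 (adjusted p = 5e-05), and Tm7sf2 stood at -1.30 ± 0.07 (adjusted p = 0.000126). Tm7sf2 had 2.23 and 2.39 CPM at 10 and 50 ng/ml with GSK126, against 5.76 CPM with GSK126 alone, and 3.43 and 3.57 CPM with BMP2 alone, against 8.49 CPM with vehicle. All 4 BMP2 libraries of day 6 lay below both libraries without BMP2. Hsd17b7 stood at -1.06 ± 0.24 (adjusted p = 0.0192) and Nsdhl at -1.05 ± 0.12 (adjusted p = 0.00125). Ebp, which GSK126 had not moved past the threshold, stood at -0.17 ± 0.05 (adjusted p = 0.0458), a call that DESeq2 did not make and that was lost without any 1 day 1 library (-0.17) and without any day 6 library (-0.19 to -0.10) other than GSK126 alone and GSK126 with 50 ng/ml BMP2. Dhcr7 stood at 0.32 ± 0.12 (adjusted p = 0.0866).

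Soat2 rose by 0.99 ± 0.16 with BMP2 on day 6 (adjusted p = 0.00539). Abca1 stood at 0.16 ± 0.59 (adjusted p = 0.868), a mean of unlike parts. With GSK126 it had 14.6 and 42.4 CPM at 10 and 50 ng/ml BMP2, against 8.19 CPM without BMP2, whereas without GSK126 it had 1.86 and 2.92 CPM with BMP2, against 5.13 CPM with vehicle. BMP2 libraries thus held more Abca1 than their control with GSK126 and less without it. Mylip stood at -0.08 ± 0.12 (adjusted p = 0.62). Across fits without 1 library, 17 to 26 members were lower with BMP2 on day 6, 17 when the library given 10 ng/ml BMP2 with GSK126 was left out. On the day 6 libraries alone 13 were lower and Soat2 was higher, against 5.56% and 3.16% of tested genes.

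Between the 2 BMP2 doses on day 6 few members differed. With 50 against 10 ng/ml, Insig1 (0.30 ± 0.06, adjusted p = 0.0218) and Scd1 (0.36 ± 0.08, adjusted p = 0.0391) were higher and Ebp (-0.34 ± 0.06, adjusted p = 0.0163) was lower in edgeR's test, against 5.33% of tested genes higher and 6.47% lower. None of the 3 was called on the day 6 libraries alone. Insig1 and Scd1 lost their calls without any 1 of the 6 day 1 libraries (0.30 and 0.36) or either 10 ng/ml library of day 6 (lowest 0.29 and 0.34), and Scd1 also without 50 ng/ml BMP2 alone (0.22). Ebp lost its call when 1 of the 10 ng/ml libraries of day 6 was left out (-0.38 and -0.30) and without 4 of the day 1 libraries, those of vehicle, 50 ng/ml BMP2, GSK126, and GSK126 with 50 ng/ml BMP2 (-0.34 each). Without the day 6 vehicle or GSK126-only library, 5 members were higher and 2 lower. The dose order differed by GSK126. With GSK126, 16 of 18 sterol synthesis genes were lower at 50 than at 10 ng/ml, with a median log2 ratio of -0.27, and without GSK126 15 of 18 were higher, with a median of 0.14. These are single libraries with no test. The same counts were not made over all tested genes, so a shift of whole libraries cannot be told apart from one of these genes.

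On day 6, cells given both agents had the lowest levels of most sterol synthesis genes. In the library of 50 ng/ml BMP2 with GSK126, 16 of 18 sterol synthesis genes lay below all of GSK126 alone, 50 ng/ml BMP2 alone and vehicle, and at 10 ng/ml 16 of 18 did so too. Of all tested genes, 29.2% at 50 ng/ml and 31.9% at 10 ng/ml lay below the 3 other libraries. All 5 tested genes of the LXR, efflux and storage group lay above the 3 other libraries at 50 ng/ml and 4 of 5 at 10 ng/ml, against 27.7% and 32.4% of all tested genes. These are levels of single libraries, given without a test, and the interaction of the agents is tested across libraries after them.

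At 50 ng/ml Hmgcs1 had 99.4 CPM with both agents (95% Poisson interval 96.5 to 102.5). It had 256.5 CPM with GSK126 alone, 242 CPM with BMP2 alone and 316 CPM with vehicle, from which an additive expectation of 183 CPM followed. Idi1 had 32.9 CPM (31.2 to 34.7) against an additive expectation of 77.3 CPM. Both were below the additive and the multiplicative expectation. At 50 ng/ml, 14 of 18 sterol synthesis genes lay below the additive and 17 of 18 below the multiplicative expectation, and at 10 ng/ml 12 and 16 of 18 did. The share of all tested genes below either expectation was not computed, so nothing particular to sterol synthesis genes is read from these counts.

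Elovl6 had 21.6 CPM with both agents at 50 ng/ml, with an additive expectation under 0 and a multiplicative one of 24.9 CPM. Abca1 had 42.4 CPM (40.4 to 44.4) with both agents, against an additive expectation of 5.99 CPM and a multiplicative one of 4.67 CPM. Soat2 had 20.8 CPM (19.4 to 22.2), against 10.7 CPM and 16.8 CPM. Both genes exceeded both expectations at 50 ng/ml, whereas at 10 ng/ml Soat2, at 14.1 CPM, was above the additive one (10.2 CPM) and below the multiplicative one (15 CPM). Vehicle levels were exceeded 8.26 times by Abca1 and 8.84 times by Soat2, and Hsd17b7 stood at 0.232 of its vehicle level.

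The interaction of GSK126 with any BMP2 on day 6 was tested across all genes. In edgeR's test 0 of 34 members passed in either direction, against 0% of tested genes higher and 0% lower, with 533 genes higher and 592 lower at an unadjusted p under 0.05. At that unadjusted level 2 members were higher and 16 lower, and limma-voom also called 0. DESeq2's Wald test called 7 members lower (Cyp51, Fdps, Hsd17b7, Scd2, Mvd, Fdft1 and Sqle) and Abca1 higher, against 0.962% and 0.614% of tested genes. Fdps had the value -1.04 ± 0.28 and Abca1 2.91 ± 0.79 there, with DESeq2 adjusted p of 0.0189 and 0.0209. The interaction calls thus differed between the tools.

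**Figure D3:**
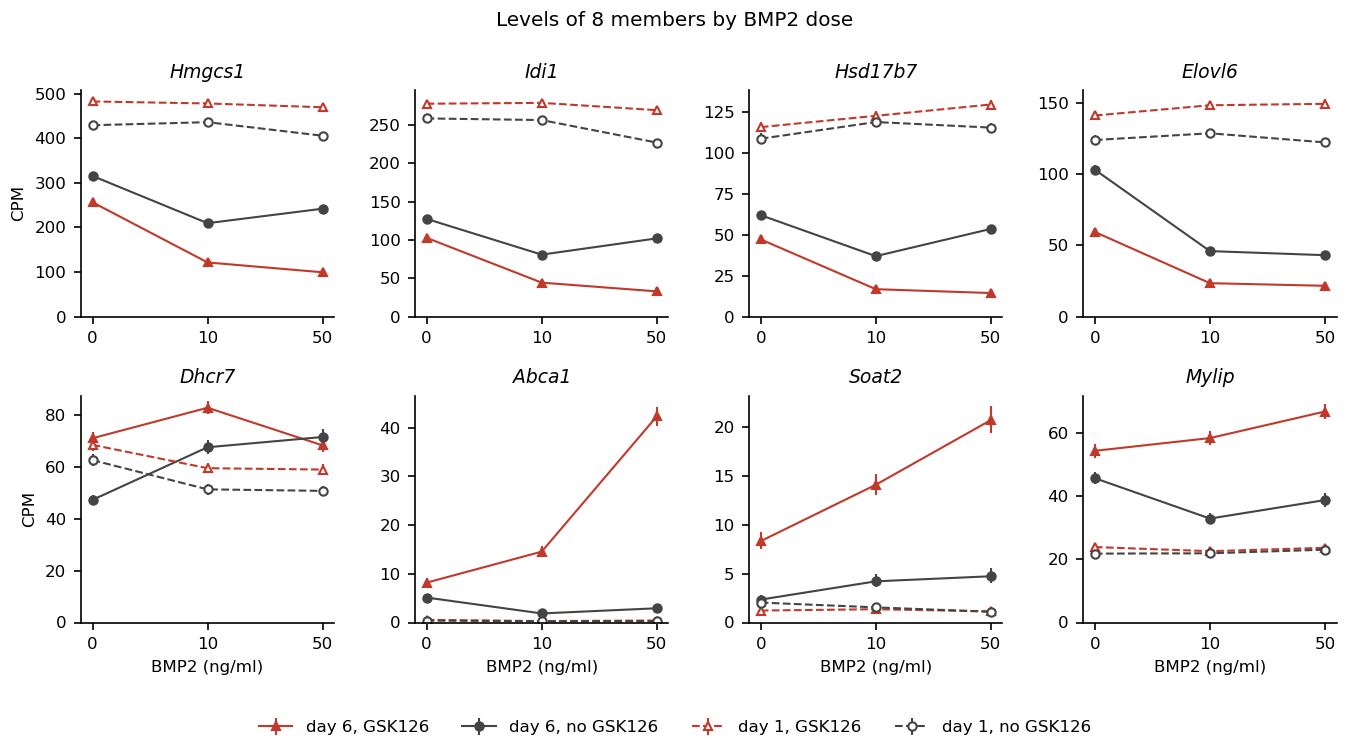
CPM (y axes) of 8 members by BMP2 dose (x axes) in GSK126 cells (triangles) and cells without GSK126 (circles) on day 6 (filled, solid lines) and day 1 (open, dashed lines), 1 library per point with 95% Poisson bars. Hmgcs1, Idi1, Hsd17b7 and Elovl6 are lowest with GSK126 and BMP2 on day 6, Abca1 and Soat2 climb with BMP2 in GSK126 cells of day 6, and Dhcr7 does neither.

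On day 1 the response to GSK126 was small and of the other sign. The 18 sterol synthesis genes had values of 0.06 to 0.38, with a median of 0.16, against 0.007 over all genes, but in edgeR's test 0 of 34 members passed in either direction, against 0% of tested genes higher and 0% lower, with 515 genes higher and 240 lower at an unadjusted p under 0.05. At that level 12 members were higher and 0 lower, DESeq2 called 1 member higher and limma-voom 0. Tm7sf2 had 17.1, 14.5 and 14.8 CPM at 0, 10 and 50 ng/ml BMP2 with GSK126 on day 1, against 13.6, 11.8 and 10.3 CPM without. Hmgcs1 had 483, 478 and 470 CPM with GSK126, against 429, 436 and 406 CPM without. For both genes every GSK126 library of day 1 lay above every other library of that day, and the share of all tested genes that did so was not computed.

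The fit over all libraries shares 1 spread between both days. In a fit on the 6 day 1 libraries alone (2 residual degrees of freedom), 26 members were higher with GSK126 and Soat1 was lower, against 8.75% and 7.48% of tested genes. The 26 included 16 of 18 sterol synthesis genes, all 7 fatty acid genes, Srebf2, Insig1 and Nr1h2. Fasn had 0.24 ± 0.015 and Hmgcs1 0.17 ± 0.02 there (edgeR adjusted p = 7.38e-06 and 0.00103). Abca1 was read from 12 to 27 pairs per library on day 1, at 0.534, 0.292 and 0.409 CPM with GSK126, against 0.399, 0.262 and 0.279 CPM without, and its difference was not detectable at this depth.

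With BMP2 on day 1, 1 member passed the threshold in the fit over all libraries. Soat1, which esterifies cholesterol in most tissues, had 66.1 and 69.6 CPM at 10 and 50 ng/ml with GSK126, against 53.4 CPM with GSK126 alone, and 71.4 and 81.2 CPM with BMP2 alone, against 55.2 CPM with vehicle. All 4 BMP2 libraries lay above both without BMP2, with a fold change of 0.40 ± 0.06 (edgeR adjusted p = 0.0202). The call was lost without any 1 of the 6 day 1 libraries (0.34 to 0.46). Thus 1 of 34 members was higher, against 1.8% of tested genes, and 0 were lower, against 1.86%. At an unadjusted p under 0.05, 3 members were lower, and DESeq2 and limma-voom called 0 lower. In the fit on day 1 alone 6 members were higher, Soat1 among them, and 9 lower, against 20.8% and 18.1% of tested genes.

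The GSK126 effect itself differed between the days. The difference, day 6 minus day 1, was negative past the threshold for 17 of 34 members and positive for 1, against 6.52% and 3.94% of tested genes. Of the 17, 9 were sterol synthesis genes, 3 SREBP control genes and 5 fatty acid genes. Elovl6 differed by -1.15 ± 0.08 (edgeR adjusted p = 0.00036) and Tm7sf2 by -0.97 ± 0.10 (adjusted p = 0.00213), and Soat2 by 2.19 ± 0.22 (adjusted p = 0.00208). For Abca1 the difference was 2.11 ± 1.00 (adjusted p = 0.236). Without any 1 of the 6 day 1 libraries 4 members kept a negative difference (Mvk, Lss, Tm7sf2 and Elovl6), and leaving out 1 of the 10 ng/ml libraries of day 6, either with or without GSK126, left 9. Soat2 kept its call in every fit without 1 library.

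The BMP2 effect also differed between the days, for 13 members negatively and for Soat2 positively (1.31 ± 0.24, edgeR adjusted p = 0.0194), against 5.33% and 3.82% of tested genes. Elovl6 differed by -1.35 ± 0.08 (adjusted p = 0.0012) and was the single member that kept this call in every fit without 1 library. Without any 1 day 1 library 1 to 4 members were negative, 1 without the library of GSK126 alone, and 26 were negative without the day 6 vehicle library or that of 50 ng/ml BMP2 alone. Soat1, higher with BMP2 on day 1, had a difference of -0.50 ± 0.09 (adjusted p = 0.016). Soat2 lost its call without the day 1 library of vehicle (0.96), 10 ng/ml BMP2 (1.27), 50 ng/ml BMP2 (1.18) or 10 ng/ml BMP2 with GSK126 (1.35).

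On day 6 most synthesis genes were lower and most efflux and storage genes higher than on day 1. In edgeR's test on the mean over the 6 conditions, 27 of 34 members were lower on day 6 and 6 were higher, against 37.5% and 40.5% of all tested genes. Sterol synthesis genes were lower in 16 of 18 cases with a median of -1.25, against 0.03 over all genes. For these 16, all 6 libraries of day 6 lay below all 6 of day 1, which held for 23.6% of tested genes. SREBP control genes were all 4 lower, with no overlap for 3, and 6 of 7 fatty acid genes were lower without overlap. In the LXR, efflux and storage group 4 of 5 were higher without overlap, against 22.1% of tested genes, and Soat1 was lower.

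Acat2, which makes acetoacetyl-CoA for the first step, fell by 2.12 ± 0.10 (adjusted p = 2.27e-06), to 7.79 to 29.9 CPM on day 6, against 61.1 to 75.4 CPM on day 1. Nsdhl stood at -1.87 ± 0.08 (adjusted p = 1.57e-06), Lss at -1.81 ± 0.05 (adjusted p = 2.41e-07) and Elovl6 at -1.66 ± 0.04 (adjusted p = 1e-07). None of these genes had a day 6 library as high as any day 1 library. Insig1 had 84.5 to 161.3 CPM on day 6, against 206.3 to 237.6 CPM on day 1, and Fasn had 291.7 to 452.7 CPM, against 724.8 to 964.3 CPM. Soat1 had 39.7 to 46.2 CPM on day 6, against 53.4 to 81.2 CPM on day 1, at -0.60 ± 0.04 (adjusted p = 1.04e-05).

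Abca1 rose by 4.51 ± 0.46 (adjusted p = 8.39e-05), with 1.86 to 42.4 CPM on day 6, against 0.262 to 0.534 CPM on day 1. Soat2 rose by 2.34 ± 0.11 (adjusted p = 2.25e-06), with 2.35 to 20.8 CPM on day 6, against 1.10 to 2.04 CPM on day 1. Mylip rose by 1.08 ± 0.08 (adjusted p = 1.43e-05) and Nr1h2 rose by 0.22 ± 0.03 (adjusted p = 0.000757). Scd2 (0.02 ± 0.10) did not pass the threshold. Ebp rose by 0.52 ± 0.03 (adjusted p = 9.44e-06), with 44.1 to 58.2 CPM on day 6, against 33.97 to 40.7 CPM on day 1.

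Dhcr7 rose by 0.21 ± 0.08 (adjusted p = 0.0382), with overlapping libraries, and its sign turned to -0.003 when libraries were scaled by their totals alone, a scaling that moved the median of all genes by -0.18 between the days. Dhcr7 was also lost in 9 of the 12 fits without 1 library (lowest 0.13, without the day 6 library of GSK126 alone). The row Rn45s, ribosomal RNA precursor, took 13.1 to 21.7% of the counts of day 6 libraries, against 8.96 to 11.7% in day 1 libraries. With that row left out of the totals, the sterol synthesis genes had a day median of -1.25, with 2 higher and 16 lower, as with it.

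Synthesis and efflux were set side by side in each library as the mean log2 CPM of the 18 sterol synthesis genes minus that of the 5 tested LXR, efflux and storage genes. On day 6 the difference was 1.29, -0.01 and -0.76 at 0, 10 and 50 ng/ml BMP2 with GSK126, and 2.11, 1.76 and 1.70 without GSK126. On day 1 it was 3.78, 3.78 and 3.73 with GSK126 and 3.62, 3.68 and 3.61 without. The day 6 libraries lay below all day 1 libraries, and the 2 libraries with both agents on day 6 were the ones at or under 0. CPM are not scaled by length and the groups hold different genes, so a value of 0 marks no balance between synthesis and efflux. Both agents at 50 ng/ml against vehicle on day 6 gave a change of -2.87, and of -1.26 when medians over the genes were used in place of means. Of the 5 efflux and storage genes, Abca1 and Soat2 had the largest ratios of both agents to vehicle. As the members were chosen with results of these data known, no p-value is given for these levels.

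**Figure D4:**
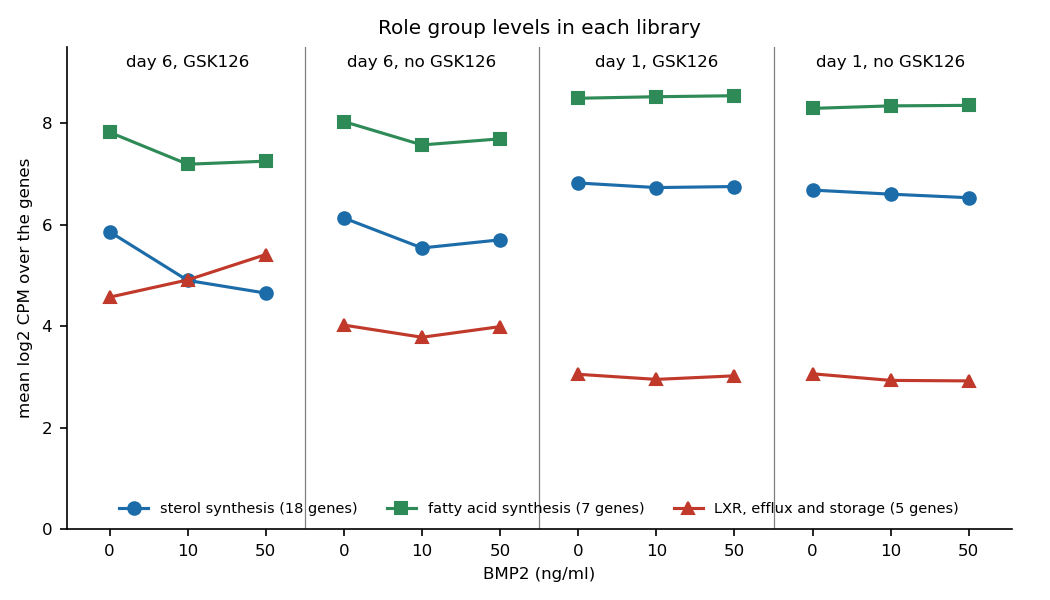
Mean log2 CPM (y axis) of 3 role groups in each of the 12 libraries (x axis, BMP2 dose within day and GSK126 blocks), 1 point per library. The sterol synthesis line meets the efflux line at 10 ng/ml BMP2 with GSK126 on day 6 and lies below it at 50 ng/ml, whereas it lies 3.61 to 3.78 above it on day 1. CPM are not scaled by length, so the crossing marks no balance point.

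Of 20 other SREBP pathway genes, all tested, 5 were lower and 2 higher with GSK126 on day 6, with a median of 0.01, against 14% of all tested genes lower and 14.3% higher. Those lower included the acetyl-CoA producing enzymes Acss2 (-0.78 ± 0.09, edgeR adjusted p = 0.00111) and Acly (-0.45 ± 0.04, adjusted p = 0.000744), and those higher were Mid1ip1, an activator of acetyl-CoA carboxylase (0.57 ± 0.06), and the elongase Elovl5 (0.25 ± 0.06). Of 16 other genes of LXR response and sterol handling, 15 were tested, and 6 were higher and 0 lower, against the same shares of all tested genes, including the phospholipid transfer protein Pltp (0.49 ± 0.05) and the cholesteryl ester hydrolase Nceh1 (0.43 ± 0.09). With BMP2 on day 6 the counts were 4 higher and 7 lower of 20, with Acss2 at -1.16 ± 0.09, and 4 higher and 1 lower of 15, with Pltp at 0.54 ± 0.05, against 13.3% of all tested genes higher and 15.5% lower. With lists of 20 and 15 genes, nothing particular to them is read from these counts.

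Markers of cell state and of other cell types were read beside these results. The summed level of 8 genes of cycling cells was 436, 333 and 243 CPM at 0, 10 and 50 ng/ml with GSK126 on day 6, against 923, 680 and 460 CPM without, and lay at 1790 to 1890 CPM in the 6 day 1 libraries. All 8 fell with GSK126 on day 6, against 14% of tested genes, and all 8 were lower on day 6 than on day 1, against 37.5%. Most sterol synthesis genes had the same sign in both comparisons, but the order over BMP2 doses differed. Without GSK126 the cycling sum was lower at 50 than at 10 ng/ml, whereas 15 of 18 sterol synthesis genes were higher. The median interaction of GSK126 with BMP2 on day 6 was 0.068 for the cycling genes and -0.625 for the sterol synthesis genes. The part of cycling cells in the result was not tested. The summed level of 7 macrophage genes was 16.6, 16.8 and 14 CPM with GSK126 on day 6, against 10.8, 10.1 and 10.3 CPM without. Of these, 3 were tested, and 1 was higher and 0 lower with GSK126, against 14.3% and 14% of tested genes. Their log2 fold changes ran from -0.485 to 1.175 with a median of -0.249, so they did not move together. The part of such cells in the result was not tested. Emr1, Ptprc and Itgam had at most 2, 4 and 4 read pairs in any library, whereas Lyz2, Cd14, Csf1r and Cd68 reached 621, 342, 80 and 52. The summed level of 8 adipocyte genes was 4.11 to 8.92 CPM in all, with Adipoq and Plin1 at 3 read pairs or fewer and Cfd at 0. Cebpa, Pparg and Fabp4 reached 394, 182 and 34 read pairs. Of the 2 adipocyte genes tested, 1 was higher with GSK126 on day 6, against 14.3% of tested genes. With BMP2 on day 1 also 1 was higher, against 1.8%. Their part in the result was not tested. The osteoblast genes Runx2, Sp7, Alpl, Ibsp, Bglap, Col1a1 and Spp1 were all read, and their sum was 38500, 54400 and 89200 CPM with GSK126 on day 6, against 29500, 39300 and 75300 CPM without. Col1a1 reached 3198783 read pairs and Spp1 345654, so the sum can rest largely on Col1a1. Gene by gene, 4 of 7 were higher and 0 lower with GSK126 on day 6, against 14.3% and 14% of tested genes. With BMP2 on day 6 all 7 were higher, against 13.3%.

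Some members share their place with other rows of the count table, and whether the counting used strand is not given in the sources used here. Fdft1 overlaps Ctsb, Lss overlaps 4930483K19Rik and Srebf1 overlaps Rai1 on opposite strands, and Tm7sf2 overlaps 1110014N23Rik on the same strand, so that reads of these pairs may have been split or lost. Hmgcs1, Idi1, Nsdhl and Hsd17b7 overlap no other row, and the part of such overlaps in the results was not tested.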

How the data were processed

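RNA-seq of 12 MC3T3 sc4 libraries was read from the table of gene counts that the authors deposited, together with RPKM values, which the authors had already divided by length and depth. The submitters' processing notes list mm10, bcl2fastq, HTSeq and TopHat2 2.0.6, and the strand setting is not given in the sources used here. Libraries were grouped by their titles. The 36 members and all gene lists were chosen with earlier results of these data known. Rows under 1 CPM in all but 1 library were dropped, and counts were normalised by TMM in edgeR 4.0.16 (R 4.3.3). The quasi-likelihood fit had 8 coefficients (GSK126 and each BMP2 dose within each day) and 4 residual degrees of freedom, and the interaction fit had day by GSK126 by any BMP2. Threshold: Benjamini-Hochberg adjusted p of 0.05 over 12056 genes. CPM are TMM-scaled, with exact Poisson intervals (95%) on read pairs. Named genes are members or listed genes, grouped by role. Scripts were tested on simulated counts. Alternatives were DESeq2 1.42.0, library totals, other filters, limma-voom 3.58.1 (also with 1 weight per day, chosen after seeing the data), fits per day, halved counts, totals without Rn45s and each library left out. Some genes of these pathways are not reported here.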

Additional observations from a re-analysis of the deposited data

Results flagged for a closer look

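Several members had a treatment effect that differed between day 6 and day 1, by the test of the difference itself (edgeR's quasi-likelihood test, adjusted over all tested genes). Values are log2 fold changes on day 6 minus those on day 1, and none was weighed for a cause.

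For GSK126 the sterol synthesis genes with a negative difference were Nsdhl (-0.97), Tm7sf2 (-0.97), Hmgcs1 (-0.96), Mvk (-0.92), Lss (-0.92), Acat2 (-0.89), Mvd (-0.87), Sqle (-0.86) and Pmvk (-0.62). In the SREBP control group Stard4 differed by -0.91, Srebf2 by -0.60 and Insig1 by -0.47. Among fatty acid genes Elovl6 differed by -1.15, Fads2 by -0.72, Fads1 by -0.47, Scd1 by -0.47 and Fasn by -0.44. Soat2 had a positive difference of 2.19.

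For BMP2 the negative differences were those of Tm7sf2 (-1.03), Nsdhl (-1.01), Lss (-0.81), Mvk (-0.73) and Pmvk (-0.53) in sterol synthesis and of Stard4 (-0.88) and Insig1 (-0.49) in SREBP control. Elovl6 differed by -1.35, Fads2 by -0.54, Fads1 by -0.50, Scd1 by -0.43 and Fasn by -0.42. Soat1 differed by -0.50, and Soat2 had a positive difference of 1.31. Both sets of differences come from the same 12 libraries.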

How the results depend on the processing

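Counts of called members were within 1.5 times of those reported under the alternatives run, except as follows. Under fits per day, GSK126 gave 1 higher and 6 lower on day 6 and 26 higher and 1 lower on day 1; BMP2 gave 13 lower on day 6 and 6 higher and 9 lower on day 1; and 50 against 10 ng/ml gave 0 and 0. DESeq2 gave 1 higher for GSK126 on day 1, 2 higher for BMP2 on day 6, 2 higher for the day difference of GSK126, 2 higher and 20 lower for that of BMP2, and 1 higher and 7 lower for the interaction. Scaling by library totals gave 0 higher for BMP2 on day 1, 0 higher and 3 lower for 50 against 10 ng/ml and 21 lower for the BMP2 day difference, and moved the median of all genes by -0.18 (day), -0.15 (BMP2 on day 6), -0.15 (50 against 10 ng/ml), -0.10 (BMP2 day difference) and 0.11 (interaction). With 1 weight per day in limma-voom, chosen after seeing the data, counts were 13 higher for GSK126 on day 1, 3 higher and 7 lower for BMP2 on day 1, 0 and 0 for 50 against 10 ng/ml, 2 higher for the GSK126 day difference, and 2 higher and 22 lower for that of BMP2. Using medians moved the synthesis against efflux change to -1.26. The value of Dhcr7 between days turned to -0.003 with library totals. The cause was not tested.

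Without 1 library each (3 residual degrees of freedom), GSK126 on day 6 gave 2 to 4 higher and 11 to 25 lower, GSK126 on day 1 0 and 0, BMP2 on day 6 1 to 2 higher and 17 to 26 lower, BMP2 on day 1 0 to 2 higher and 0 to 1 lower, 50 against 10 ng/ml 0 to 5 higher and 0 to 2 lower, and day 6 against day 1 5 to 6 higher and 27 lower. The GSK126 day difference gave 1 to 3 higher and 4 to 25 lower, that of BMP2 0 to 2 higher and 1 to 26 lower, and the interaction 0 higher and 0 to 1 lower. The interaction could not be fitted without 4 of the libraries. Depth limits Abca1 on day 1, Nr1h3 and Abcg1. No paired analysis was possible because each condition was 1 library and the labels give no replicate numbers.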
